A study of Mus musculus with 16 samples.

Results

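The comparison described here sets newly made RNA of mouse embryonic stem cells in which the protein YEATS2 carries an auxin-inducible degron against that of wild-type (WT) cells. It rests on 4 of the 16 libraries of the study, 2 of AID-Yeats2 and 2 of WT, and on the 14513 of 27831 mouse genes in the table that passed a filter on low counts. All libraries came from the E14 line, grown in serum with leukaemia inhibitory factor at 1500 U/ml, the GSK3 inhibitor CHIR99021 at 3 µM and the MEK inhibitor PD0325901 at 1 µM. Auxin was given for 24 h to every line, WT included, and RNA was labelled with 4-thiouridine (4sU) for 15 min before the labelled molecules were purified. Labelled fission yeast (S. pombe) cells had been added beforehand as a spike-in. The AID-Yeats2 libraries came from 2 independent clones. The WT libraries came from E14 cells without further change (replicate 1) and from a line that overexpresses Tir1, the plant receptor through which auxin directs tagged proteins to degradation, and BirA (replicate 2). The labels do not say whether the AID-Yeats2 clones carry Tir1 or BirA. The 2 WT libraries thus differ from each other in Tir1 and BirA, and which of them is nearer to the clones in this is not known. No library shows AID-Yeats2 cells without auxin. Supt7l-/- clones from the same sequencing project and AID-Zzz3 clones from another project, also on auxin, served as the nearest comparisons.

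YEATS2 is a subunit of ATAC, a coactivator complex built around the acetyltransferase GCN5 or PCAF and a second acetyltransferase, KAT14. ATAC shares its GCN5 module with the SAGA complex, of which SUPT7L is a core subunit. YEATS2 reads acylated histone tails through its YEATS domain and pairs through its histone fold with NC2β (Dr1), and ZZZ3 is another histone reader of ATAC. In human lung cancer cells and in mouse embryonic stem cells ATAC is known from the promoters of highly transcribed housekeeping genes, those of ribosomal proteins among them.

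The mouse genes had 10542251 and 9488959 counts in the WT libraries and 9713069 and 9790639 in AID-Yeats2 clones 1 and 2. Replicates correlated across genes at r = 0.985 in WT and 0.990 in AID-Yeats2 (log2 counts). Of the embryonic stem cell markers, Esrrb stood at 797 and 795 CPM, counts per 1000000 of the library size after TMM scaling, which centres most genes on no change, in WT and at 812 and 791 in the clones. Nanog had 180 and 226 CPM in WT and 210 and 213 in the clones, and Zfp42 (Rex1) had 522 and 533 against 535 and 581. The 7 stem cell markers tested summed to 1611.5 and 1696.5 CPM in WT and to 1702.5 and 1714.9 CPM in AID-Yeats2. Marker lists for fibroblasts or feeders, primitive endoderm, trophectoderm, two-cell-like, neural and meiotic germ cells were checked alongside, and 0 of the 38 marker entries tested passed the test. Of the 9 primitive endoderm markers, 8 were positive, with a median of 0.29 (-0.20 with spike-in scaling). In 7 of the 9 both clones lay above both WT libraries, as they did in 25.3% of all genes tested. The sum of the 9 markers was 515 and 550 CPM in WT and 499 and 525 in the clones, most of it from Lama1. The part of these markers in the results below was not tested. The degron acts on the protein, so RNA of the tagged gene does not check depletion. Yeats2 itself, on mm10 chromosome 16 (20141063 to 20232573), had 242 and 256 CPM in WT and 109 and 188 CPM in the clones, lower in both clones but not past the test (log2 fold change -0.74 ± 0.29 SE; edgeR adjusted p = 0.284). With spike-in scaling it was called lower (-1.21; edgeR adjusted p = 2.77e-05).

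Per spike-in RNA, the clones held less newly made mouse RNA than WT. The ratio of mouse to spike-in reads, each as effective library size, was 6.55 and 6.58 in WT and 4.26 and 5.07 in clones 1 and 2, that is 64.8% and 77.2% of the WT mean. The groups did not overlap, but an exact two-sided permutation test of 2 libraries against 2 gave p = 0.333, the smallest it allows. Scaling to the spike-in moved the median log2 fold change of all genes from about 0 to -0.50. All fold changes below are therefore relative to the bulk of genes (TMM) unless spike-in scaling is named. A bulk library cannot tell fewer labelled cells from less labelled RNA per cell.

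Relative to the bulk, 569 genes were higher in AID-Yeats2 than in WT (3.92% of those tested) and 482 were lower (3.32%), with edgeR's quasi-likelihood test at a Benjamini-Hochberg adjusted p of 0.05. At an unadjusted p under 0.05 there were 3097. All 1051 called genes (7.24%) had both clones beyond both WT libraries, where 25.3% of all genes had both clones above and 25.8% both below. Where a called gene is said below to have groups that do not overlap, this restates that and is no further support. The genes that rose had a median level of 19.7 CPM in WT, where the median of all genes tested was 14.7 CPM, and of 32.9 CPM in AID-Yeats2, with a median log2 fold change of 0.72. Those that fell had a median of 84.5 CPM in WT and 60.4 CPM in AID-Yeats2, with a median log2 fold change of -0.45. With spike-in scaling 59 genes were higher (0.407%) and 3411 lower (23.5%), so 54.1% of calls were rises relative to the bulk and 1.70% per spike-in. All 482 falls were also called lower per spike-in, and 55 of the 569 rises were also called higher. The authors' deposited table, at an adjusted p under 0.05, calls 35 genes higher and 4641 lower, among them 33 of the 569 and 475 of the 482. The counts depended on each of the libraries. Without clone 1 they were 133 higher and 87 lower, and without clone 2 they were 225 and 161. Without WT replicate 1 they were 1069 and 1060, and without WT replicate 2 they were 1021 and 954. Both counts were also lower without either Supt7l-/- library. These libraries enter the filter, the scaling and the estimate of spread. The fits without 1 library tested 15006 to 15298 genes in place of 14513, so their counts are over other sets of genes. DESeq2 called 329 and 268. Of the 108 called genes singled out by rule, 41 stayed called whichever library was left out and 29 in all 13 settings tried. The latter included Actn2, Eif4g3, Eef1g, Cct7, E2f3, E2f8, Sf3b3, Ephx1 and Snhg17, and Rpl9, Rpl27, Rpl29, Rpl31, Rpl35, Rpl36a, Rpl37a, Rpl38, Rps18, Rps24 and Rack1 among ribosomal genes. Leaving out clone 1 lost the most calls, 65 of the 108.

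**Figure D1:**
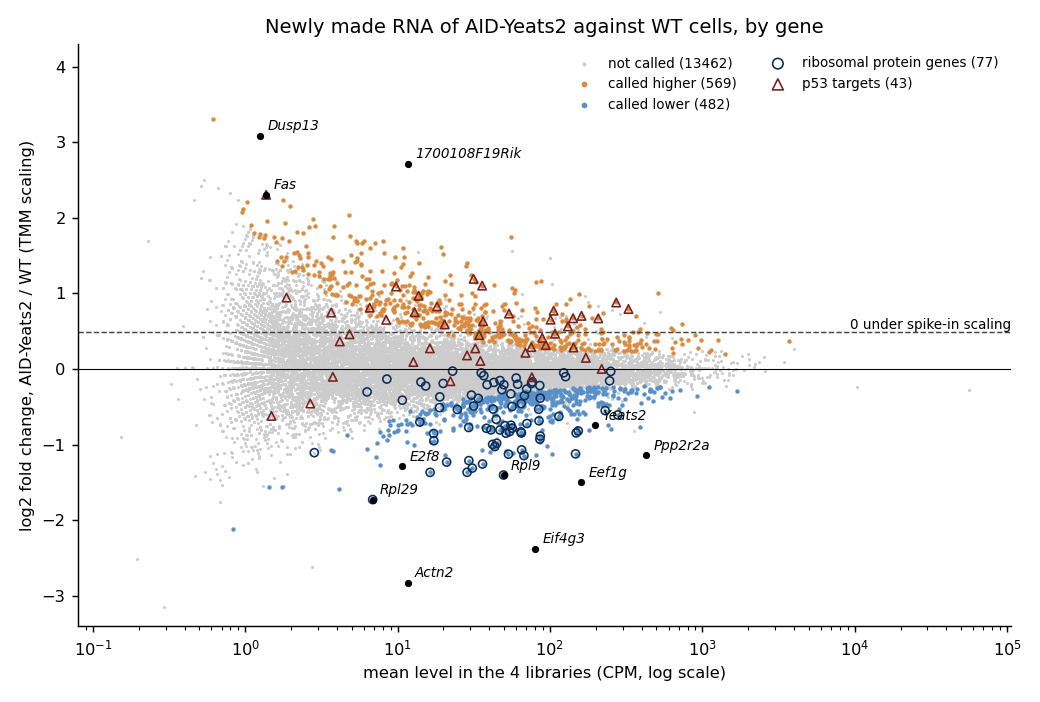
Log2 fold change of AID-Yeats2 over WT (TMM scaling, vertical axis) against the mean level in the 4 libraries in CPM (log scale, horizontal axis), 1 point for each of 14513 genes. Called genes are coloured, rings mark ribosomal protein genes, which lie below 0, and triangles mark p53 targets, most of which lie above it.

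The largest fall among protein-coding genes was in Actn2, which encodes the muscle form of α-actinin, a cross-linker of actin filaments (ENSMUSG00000052374, mm10 chromosome 13, 12269426 to 12340760). Actn2 had 16.4 and 24.5 CPM in WT and 2.89 and 2.84 CPM in the clones. Both clones thus lay far below both WT libraries (log2 fold change -2.82 ± 0.24; edgeR adjusted p = 1.73e-05). None of the genes next to it was called: Mtr, which encodes methionine synthase, had 159 and 158 CPM in WT and 149 and 153 in the clones (-0.07), and Heatr1, Lgals8 and Gm47322 had -0.02, -0.40 and -0.35.

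Eif4g3 (ENSMUSG00000028760, chromosome 4, 137993022 to 138208508) followed. It encodes eIF4GII, a scaffold of the cap-binding complex that starts translation. Eif4g3 had 122 and 147 CPM in WT and 22.1 and 29.7 CPM in the clones, again with a wide gap between the groups (-2.38 ± 0.17; edgeR adjusted p = 1.97e-04). Its relatives were not called: Eif4g1 was at -0.24 (edgeR adjusted p = 0.134) and Eif4g2 at 0.02. The neighbours Alpl, Ece1 and Kif17 were at 0.02, 0.02 and 0.05, values that turn to -0.47, -0.48 and -0.45 with spike-in scaling, and Hp1bp3 was at -0.25; none of these passed the relative test.

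Of the 12 largest falls, 5 were in genes of the large ribosomal subunit: Rpl29 (-1.73), Rpl9 (-1.40), Rpl36a (-1.37), Rpl37a (-1.37) and Rpl35 (-1.31). Eef1g, the γ subunit of the factor that reloads EF1A for elongation, had 200 and 272 CPM in WT and 73.0 and 94.6 in the clones (-1.49 ± 0.20; edgeR adjusted p = 0.0168). E2f8, an atypical E2F that represses cell cycle genes, had 15.4 and 15.1 CPM against 6.20 and 6.30 (-1.28 ± 0.18; edgeR adjusted p = 5.42e-04). By the way they were chosen, every clone value of these genes lay below every WT value. The spread within either group was small for E2f8. The others were Pimreg (-1.56) and Ahsg (-1.56), which had under 3 CPM in WT, and Rnf150 (-1.27).

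**Figure D2:**
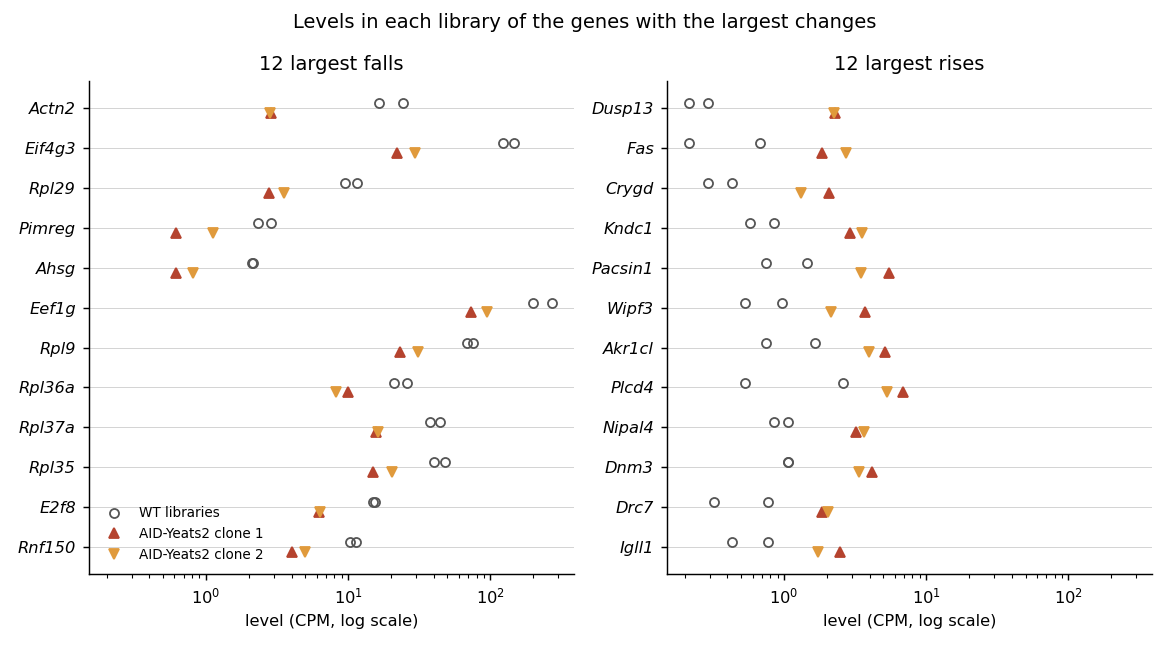
Level in each library (CPM, log scale) of the 12 protein-coding genes with the largest falls and the 12 with the largest rises. Open circles are the 2 WT libraries and triangles the 2 AID-Yeats2 clones. The genes were chosen only among those in which the 2 groups do not overlap.

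Ribosomal protein genes fell as a group. Eukaryotic ribosomes pair a small subunit, which decodes the messenger RNA, with a large one, which joins the amino acids, and most ribosomal proteins are present once in each ribosome. Of 44 large-subunit genes tested, 29 fell (65.9%) and 0 rose, against the 3.32% of all genes that fell. Their median log2 fold change was -0.78, where the median of all genes was about 0. It was -0.84 in clone 1 and -0.69 in clone 2. All 44 values were negative, and in 38 genes both clones lay below both WT libraries, as they did in 25.8% of all genes tested. Summed, the large-subunit genes had 2709.5 and 3195.8 CPM in WT and 1917.5 and 1965.5 CPM in AID-Yeats2. With spike-in scaling 41 of the 44 were called lower, with a median of -1.27.

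Within the large subunit the falls differed in size. Rpl31, at the exit of the peptide tunnel, had 85.0 and 91.6 CPM in WT and 41.6 and 42.5 in the clones, so that both clones sat near a single level well below WT (-1.07 ± 0.09; edgeR adjusted p = 1.73e-05). Rpl38 had 47.6 and 54.2 CPM against 21.4 and 21.2 (-1.26 ± 0.11; edgeR adjusted p = 1.73e-05). Rpl27 had 40.7 and 41.4 CPM against 17.3 and 18.1 (-1.21). The proteins of Rpl5 and Rpl11 form the 5S particle with 5S rRNA, which can bind MDM2. Rpl5 had 172 and 219 CPM in WT and 103 and 118 in the clones (-0.82), and Rpl11 had 57.1 and 62.5 against 31.4 and 37.0 (-0.81), both called. At the other end, 15 genes did not pass the test. Among them were Rpl4 (-0.03), Rpl13a (-0.13) and the stalk proteins' genes Rplp0 (-0.21) and Rplp1 (-0.18). The called falls ran from -0.49 (Rpl10) to -1.73 (Rpl29). Many ribosomal protein genes have processed pseudogene copies elsewhere in the genome, and how reads shared with such copies were counted is not given in the sources used here. Their values carry that uncertainty.

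Small-subunit genes fell too, with a median nearer to 0. Of 33 genes tested, 13 fell (39.4%), 0 rose, and all 33 values were negative, with a median of -0.41 (-0.41 in clone 1 and -0.39 in clone 2). Without WT replicate 1 the count was 21, and with spike-in scaling it was 29. Rps24 had 181 and 223 CPM in WT and 88.7 and 96.7 in the clones (-1.12 ± 0.10; edgeR adjusted p = 2.28e-05). Rps18 had 84.0 and 102 CPM against 37.8 and 46.2 (-1.14), and Rps4x had 61.9 and 84.7 against 32.5 and 34.5 (-1.13). Rack1, whose protein links the small subunit to signalling kinases, had 182 and 200 CPM in WT and 109 and 103 in the clones (-0.84). In each of these genes every clone value lay below every WT value. Whether the small and large subunits differed was not tested.

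The paralogues of ribosomal proteins did not move one way. Of 6 tested, 2 rose and 1 fell, where 3.92% of all genes tested rose and 3.32% fell. Rpl7l1 fell, from 70.3 and 88.6 CPM in WT to 45.7 and 50.1 in the clones (-0.73). Rps27l, a target of p53, rose from 28.6 and 28.5 CPM to 43.9 and 44.7 (0.63). Rpl39l rose from 47.3 and 50.3 CPM to 62.7 and 63.1 (0.37), a value that turns to -0.13 with spike-in scaling. Without clone 1 all 3 calls were lost.

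Other genes that serve translation fell in smaller numbers. Over all genes 3.32% fell and 3.92% rose. Of 37 initiation factor genes 4 fell (10.8%) and 0 rose, with a median of -0.10. Besides Eif4g3 these were Eif3d, Eif2s3x (-0.35) and Eif3b (-0.30). Eif3d, which encodes a cap-binding subunit of eIF3, had 57.5 and 57.0 CPM in WT and 27.7 and 28.4 in the clones (-1.03), with no overlap. Of 13 genes listed under elongation and termination, not all of them elongation factors, 4 fell (30.8%) and 0 rose. These were Eef1g, Naca (-0.65), Eef2 (-0.59) and Tpt1 (-0.54). Of 54 ribosome biogenesis genes 6 fell (11.1%), Fbl (-0.49), Pes1 (-0.43), Nop2 (-0.42), Gnl3 (-0.40), Nop56 (-0.35) and Riok2 (-0.32), and 1 rose, Utp20 (0.29, or -0.21 with spike-in scaling). Small nucleolar RNA host genes, many of which share with ribosomal protein genes a 5′ terminal oligopyrimidine start, had 6 of 14 members lower (42.9%) and 0 higher, with a median of -0.47. Snhg17 had 99.9 and 122 CPM in WT and 44.7 and 55.9 in the clones (-1.14), and Snhg1 had 231 and 283 against 177 and 199 (-0.45). Both sets of values were separated between the groups. By contrast, subunits of RNA polymerases I and III had 0 of 32 genes called and a median of -0.03. Mitochondrial ribosomal proteins had 1 of 72 lower (1.39%), Mrpl17 (-0.75), with a median of -0.02. Aminoacyl-tRNA synthetases had 1 of 22 lower (4.55%), Sars (-0.53), with a median of -0.12.

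**Figure D3:**
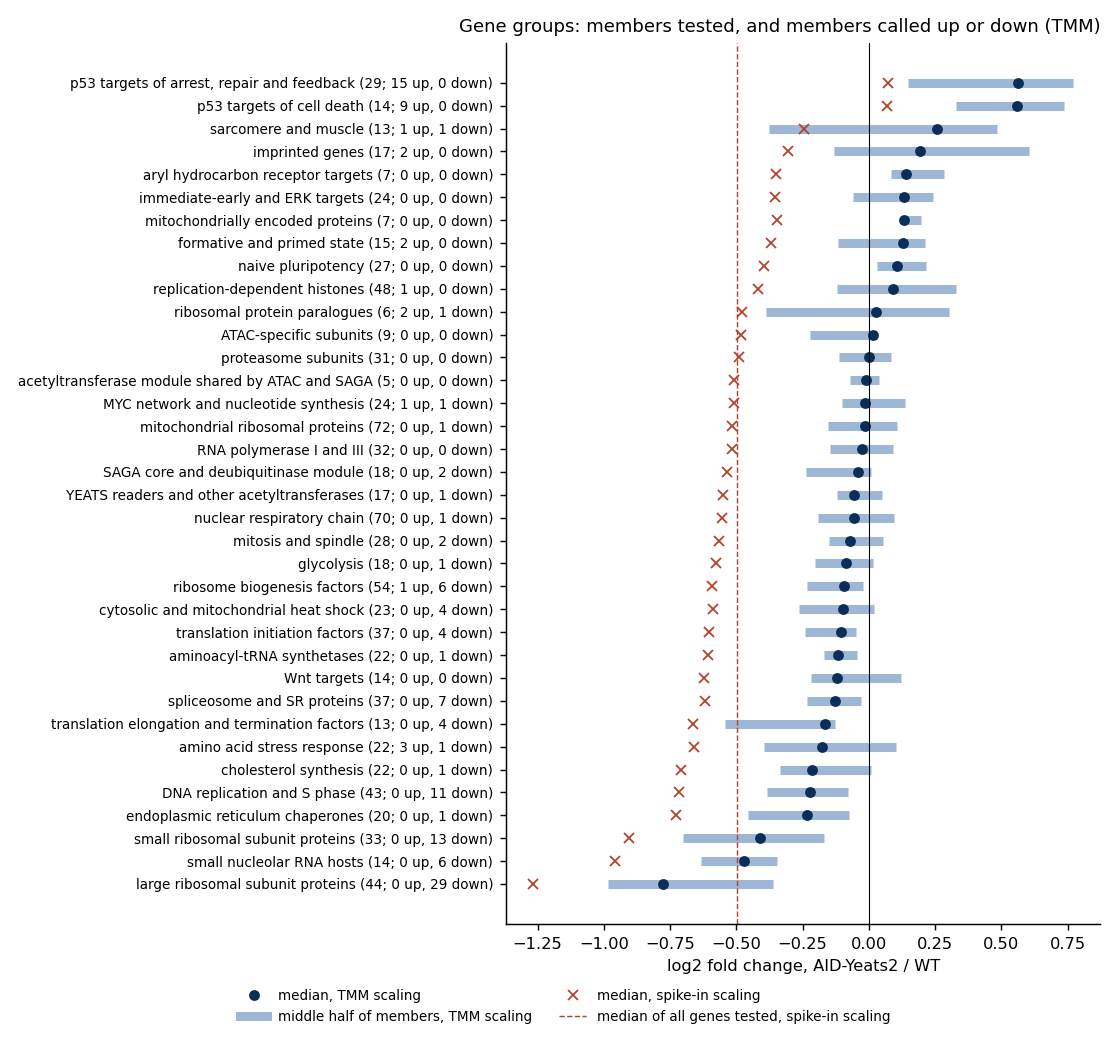
Median log2 fold change of AID-Yeats2 over WT for each gene list with TMM scaling (dots; bars span the middle 50% of members) and with spike-in scaling (crosses), with the members tested and called printed beside the list names. The dashed line marks the median of all genes with spike-in scaling, -0.50; the large ribosomal subunit lies farthest left at -0.78 (TMM), and the p53 lists lie right of 0 at 0.56.

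The genes were also sorted by a palindrome of 10 bases in their promoters, since genes that hold it were among those that fell. It is known from CpG island promoters of housekeeping genes, where the factor BANP binds it, and it had been assigned before to ZBTB33. Promoters were windows of 300 bases around the RefSeq start (250 before it, 50 after it, GRCm38.p6), and 12 motifs were searched on both strands. The windows of 5 genes with the word that fell, chosen after their values were seen, and of Actn2, the largest fall, show what these promoters look like. Each is given 5′ to 3′ on the gene's strand and ends with the base before the RefSeq start. Capitals mark the palindrome in the 5 genes and, in Actn2, which lacks it, the E-box CACGTG.

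Rpl26 (chr11:68901446-68901565, plus strand): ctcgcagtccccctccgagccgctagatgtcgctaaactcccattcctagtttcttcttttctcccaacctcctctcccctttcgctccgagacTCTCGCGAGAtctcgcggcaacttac
Ncapg (chr5:45669805-45669924, plus strand): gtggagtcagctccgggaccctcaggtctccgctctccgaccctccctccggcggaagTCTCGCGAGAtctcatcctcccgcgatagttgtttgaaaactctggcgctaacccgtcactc
Uhrf2 (chr19:30030393-30030512, plus strand): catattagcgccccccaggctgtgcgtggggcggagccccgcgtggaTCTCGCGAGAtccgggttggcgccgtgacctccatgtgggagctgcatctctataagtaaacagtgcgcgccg
Fmr1nb (chrX:68761719-68761838, plus strand): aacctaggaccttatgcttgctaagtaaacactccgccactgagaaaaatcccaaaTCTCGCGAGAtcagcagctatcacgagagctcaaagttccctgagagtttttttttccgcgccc
Usp47 (chr7:112023386-112023505, plus strand): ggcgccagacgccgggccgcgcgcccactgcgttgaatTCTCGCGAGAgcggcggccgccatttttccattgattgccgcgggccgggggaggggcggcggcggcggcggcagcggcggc
Actn2 (chr13:12340733-12340852, minus strand): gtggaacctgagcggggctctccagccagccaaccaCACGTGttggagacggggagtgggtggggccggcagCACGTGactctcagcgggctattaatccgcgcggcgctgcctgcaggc

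The palindrome was present in 153 of 32851 promoters of the table (0.466%). Among the genes tested, 119 protein-coding genes with a matched promoter held it, 105 of them with the first base before the start. The median position of that base over all 119 was -47 relative to the start. Of the 119, 17 fell (14.3%) and 0 rose, and 96 had a value below 0. Their median log2 fold change was -0.16, -0.17 in clone 1 and -0.14 in clone 2. Of the 10011 matched genes without the word, 3.55% fell, 3.97% rose and the median was -0.01. The genes with the word were also the more highly transcribed in WT, with a median of 78.8 CPM against 19.8, and the part of level in the difference was not tested. Rpl26 had 83.0 and 92.8 CPM in WT and 57.0 and 49.7 in the clones (-0.72). Ncapg, a condensin subunit, had 120 and 120 CPM against 85.9 and 90.7 (-0.45), and Uhrf2, a ubiquitin ligase that binds methylated DNA, had 298 and 282 against 218 and 237 (-0.35). Usp47, a deubiquitinase, had 161 and 167 CPM against 120 and 134 (-0.37), and Fmr1nb was at -0.49. In all of these the clones lay below WT, as in every gene called lower. The other 12 were Rpl12, Mre11a, Dis3, Srsf10, Ift74, Ofd1, Mms22l, Mdh2, Lsm14a, Scamp5, Ciapin1 and Mapk14.

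The word was picked out after the counts for the 12 motifs were seen. The share of genes that fell was 7.35% among the 68 genes with the E2F motif TTTCGCGC, 5.61% among the 214 with the NRF1 motif and 4.57% among the 328 with the CRE TGACGTCA. It was between 1.39% and 3.99% for the motifs of ETS factors (CCGGAAG), YY1 (AAGATGG), ZNF143, SP1 (GGGCGG), the CCAAT box, the TATA box (TATAAA) and the E-box, and 3.67% over all matched genes. The pair of p53 half-sites was found in 4 genes. Only 75.3% of the ribosomal protein genes and 79.6% of all protein-coding genes had a promoter in the table, under the 80% set for a comparison of motif content between gene sets, so that comparison is void. The shares and medians given by motif, those of the palindrome included, rest on the same matched genes and carry the same limit. They describe the matched genes and are no test of the word. A match of letters is not a measured binding site.

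**Figure D4:**
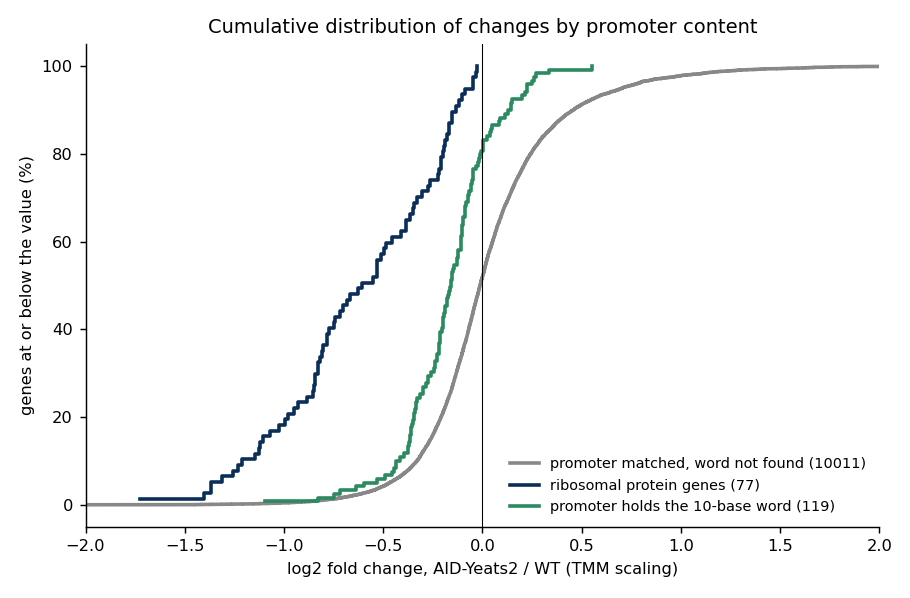
Cumulative share of genes (%, vertical axis) at or below each log2 fold change of AID-Yeats2 over WT (TMM scaling, horizontal axis), for the 119 genes with the palindrome in the promoter window and the 10011 without it, with the 77 ribosomal protein genes for comparison. The curve of the genes with the palindrome lies left of that of genes without it, with a median of -0.16 against -0.01, and the ribosomal protein genes all lie below 0.

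Genes of the cytosolic chaperonin and of splicing were among the other falls. The chaperonin TRiC folds actin and tubulin, and Cct7, one of its subunits, had 137 and 144 CPM in WT and 62.8 and 66.7 in the clones (-1.12 ± 0.08; edgeR adjusted p = 9.56e-06). Cct4 had 214 and 244 CPM against 120 and 141 (-0.81), and Tcp1 and Cct8 fell by 0.49 and 0.44 on the log2 scale. These 4 were the called members of the 23 heat shock and chaperone genes tested (17.4%, against 3.32% of all genes that fell). Of 37 spliceosome genes 7 fell (18.9%) and 0 rose, with a median of -0.13. Snrpb, a core Sm protein, had 51.5 and 58.1 CPM in WT and 25.6 and 25.7 in the clones (-1.09). Srsf9 was at -0.73, and Snrnp70, Srsf4, Srsf10, Snrpa1 and Srsf11 were between -0.49 and -0.29. Both clones lay below both WT libraries in all 11 genes, as in every gene called lower.

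Genes of DNA replication fell in part. E2F factors switch on this set as cells enter S phase, and 11 of 43 members fell (25.6%, against 3.32% of all genes), 0 rose, and 36 were negative, with a median of -0.22. Ccne2 (cyclin E2) had 25.2 and 30.8 CPM in WT and 10.6 and 14.8 in the clones (-1.13 ± 0.16). E2f3, an activating E2F, had 321 and 314 CPM against 174 and 193 (-0.79 ± 0.07; edgeR adjusted p = 2.2e-05), with no overlap and little spread in either group. Pcna, the sliding clamp, had 57.6 and 72.0 CPM against 32.4 and 42.9 (-0.78). Slbp (-0.55), Tyms (-0.53), Chaf1a (-0.45), Rpa1 (-0.40), Pole (-0.37) and Mcm4 (-0.36) were among the others that fell, with E2f8. The count was 3 without clone 1, 7 without clone 2, 20 without WT replicate 1 and 30 with spike-in scaling. Of 28 genes of mitosis 2 fell (7.14%), Pimreg and Cdk1, the latter from 145 and 159 CPM to 122 and 117 (-0.35). Of 48 histone genes 1 passed the test (2.08%, where 3.92% of all genes rose), Hist1h2bb, which rose from 12.0 and 14.9 CPM to 21.7 and 19.4 (0.62). The median over the histone genes was 0.39 in clone 1 and -0.19 in clone 2, so the clones differed in direction there.

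Targets of p53 rose relative to the bulk. The factor p53 is held low by the ubiquitin ligase MDM2 and, when released, induces genes of cell death, arrest and repair as well as Mdm2 itself. Of 14 targets linked to cell death 9 rose (64.3%) and 0 fell, against the 3.92% of all genes that rose, with a median of 0.56. Of 29 targets linked to arrest, repair and feedback 15 rose (51.7%) and 0 fell, also with a median of 0.56. With spike-in scaling the median of both lists was 0.07, and 1 of 14 and 1 of 29 were called higher. Per spike-in, most of these genes were thus near their WT level while the median of all genes was at -0.50. Summed, the death targets had 782 and 735 CPM in WT and 1132 and 1167 in the clones, and the others had 1698 and 1633 against 2283 and 2354. Without clone 1 the calls were 4 of 14 and 9 of 29, without clone 2 there were 4 of 14, and without either Supt7l-/- library, or with DESeq2, 5 of 14.

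Trp53inp1, a mediator of p53 phosphorylation and autophagy, had 186 and 197 CPM in WT and 356 and 349 in the clones (0.88 ± 0.07; edgeR adjusted p = 1.73e-05). Bbc3, which encodes PUMA, had 6.57 and 5.88 CPM against 13.6 and 12.997 (1.09 ± 0.18). Apaf1, the core of the apoptosome, had 132 and 113 CPM against 191 and 208 (0.70). In all of them the clones lay above WT. The death receptor gene Fas rose by 2.31 on the log2 scale but from few reads, and Ei24 (0.65), Dapk1 (0.47), Bax (0.45), Aen (0.29) and Zmat3 (0.29) were also called, the last 4 of them below 0 with spike-in scaling (-0.02, -0.05, -0.20 and -0.21). Pmaip1 (NOXA) was at 0.75, Pidd1 at 0.65, Perp at 0.46, Tnfrsf10b at 0.18 and Tnfrsf1a at -0.45, none past the test.

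Among the targets of arrest and feedback, Mdm2 had 253 and 226 CPM in WT and 396 and 436 in the clones (0.79 ± 0.08). Ephx1, an epoxide hydrolase, had 20.8 and 17.5 CPM against 42.2 and 45.6 (1.19 ± 0.12), and it was the member still called higher with spike-in scaling. Plk2 had 22.7 and 22.9 CPM against 50.3 and 47.7 (1.10 ± 0.11). Ccng1 (cyclin G1) had 72.0 and 84.3 CPM against 136 and 131 (0.77), and Eda2r, a receptor of the TNF family, had 161 and 160 against 244 and 266 (0.67). The clones were above WT in each, with a gap several times the spread within the groups. Cdkn1a, which encodes the cyclin-dependent kinase inhibitor p21, moved less, from 82.9 and 84.5 CPM to 102 and 107 (0.32 ± 0.08; edgeR adjusted p = 0.0328), and stood at -0.17 with spike-in scaling. Btg2 (0.97), Ptp4a3 (0.83), Abhd4 (0.75), Sesn2 (0.73), Polk (0.67), Rps27l (0.63), Phlda3 (0.59), Gtse1 (0.56) and Ckap2 (0.41, or -0.08 with spike-in scaling) completed the calls. Ppm1d (-0.11) and Cd82 (-0.62) did not pass.

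The largest rises were in genes close to silent in WT cells. Dusp13, a phosphatase gene of muscle and testis (ENSMUSG00000021768, chromosome 14, 21733394 to 21751181), had 3 and 2 reads in WT and 22 and 22 in the clones, or 0.290 and 0.214 CPM against 2.27 and 2.23 (3.09 ± 0.55; edgeR adjusted p = 0.00363). Fas had 7 and 2 reads in WT and 18 and 27 in the clones (2.31 ± 0.53; edgeR adjusted p = 0.0165). Folds from so few reads carry wide errors, and without clone 1 the edgeR adjusted p was 0.0577 for Dusp13 and 0.0563 for Fas. Without clone 1 the calls of Pacsin1, Plcd4 and Dnm3 were lost too. Pacsin1, which encodes a membrane-bending protein of neurons, had 1.45 and 0.748 CPM against 5.47 and 3.45 (1.99). Plcd4, a phospholipase C gene, had 2.61 and 0.534 CPM against 6.82 and 5.28 (1.90), and Dnm3 (dynamin 3) had 1.06 and 1.07 against 4.13 and 3.35 (1.80). Clones and WT did not overlap in any of the 12 genes chosen as largest rises, since lack of overlap was a condition of the choice. The others were Crygd (2.21), Kndc1 (2.16), Wipf3 (1.93), Akr1cl (1.90), Nipal4 (1.82), Drc7 (1.78) and Igll1 (1.77). Crygd, Drc7 and Igll1 were not called with spike-in scaling, and the other 9 were. Of the 569 genes that rose, 26 had a WT mean under 1 CPM.

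Non-coding genes moved both ways. 1700108F19Rik (ENSMUSG00000101009, chromosome 14, 76672963 to 76687169) had 3.29 and 2.89 CPM in WT and 21.9 and 18.99 in the clones, a wide gap with little spread (2.72 ± 0.22; edgeR adjusted p = 1.73e-05), and was called higher with spike-in scaling too (2.22). Gm13067 rose from 38.6 and 38.3 CPM to 78.6 and 76.4 (1.01). 5430416N02Rik fell from 117 and 138 CPM to 58.2 and 67.6 (-1.02). Snhg17 is given above.

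The called genes with the highest levels moved by small amounts, and apart from Exoc4 and Srgap2 their calls were lost without clone 1. Exoc4, a subunit of the exocyst, had 3179 and 3255 CPM in WT and 4089 and 4240 in the clones (0.37), and Srgap2 had 768 and 739 against 1030 and 1030 (0.45). Kansl1, Psme4, Ipo11, Jam2, Ubr3 and Arih2 lay between 0.20 and 0.39. With spike-in scaling all 8 were below 0 and uncalled. Among the highest falls Gab1, an adaptor of growth factor receptors, had 629 and 593 CPM in WT and 472 and 471 in the clones (-0.37). Trps1, Nfib, Mms22l, Setd5, Tenm3 and Lncenc1 lay between -0.39 and -0.23, and these 7 were called lower per spike-in as well.

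No gene of the ATAC complex was called among the 9 tested, Yeats2 included, on the relative scale. With spike-in scaling 3 of the 9 were called lower, Yeats2 among them, as were 23.5% of all genes tested. Zzz3 had 423 and 443 CPM in WT and 429 and 457 in the clones (0.03), and the others ran from Pole3 (-0.47) to Mbip (0.16). None of the 5 subunits of the acetyltransferase module that ATAC and SAGA share was called on the relative scale, and 1 was called lower with spike-in scaling. Of 18 SAGA genes 2 fell (11.1%) and 0 rose, where 3.32% of all genes tested fell and 3.92% rose. Sf3b3, whose protein also serves the U2 snRNP, had 469 and 516 CPM in WT and 290 and 287 in the clones (-0.77 ± 0.07; edgeR adjusted p = 1.73e-05), and Atxn7l1 had 105 and 110 against 71.3 and 81.2 (-0.50), without overlap. Of 17 genes of other YEATS and bromodomain readers and acetyltransferases, 1 fell (5.88%), Brd2 (-0.31).

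Genes of pluripotency and signalling were mostly uncalled. Of 27 naive pluripotency genes 0 rose and 0 fell, with a median of 0.10, where 3.92% of all genes tested rose and 3.32% fell. Klf4 came nearest, with 49.8 and 54.9 CPM in WT and 69.0 and 63.3 in the clones (0.34; edgeR adjusted p = 0.0519). Of 15 formative genes Nodal, a TGF-β ligand, rose from 39.1 and 40.1 CPM to 54.3 and 52.1 (0.43), and Dnmt3b, a de novo DNA methyltransferase, was called at 0.39, though both are below 0 with spike-in scaling (-0.07 and -0.12). Wnt pathway genes (14 tested), immediate early and ERK target genes (24), proteasome genes (31), aryl hydrocarbon receptor genes (7) and mitochondrially encoded genes (7) had 0 calls.

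Metabolic and stress genes gave few calls, and most of these, Prps2 and Sesn2 apart, were lost without clone 1. Of all genes tested, 3.92% rose and 3.32% fell. Prps2, which makes the ribose donor of nucleotides, rose from 21.1 and 24.5 CPM to 41.0 and 41.5 (0.86), while Ctps fell (-0.28). Among 22 genes of the amino acid response Ddit4 (1.11), Sesn2 (0.73) and Cth (0.28, or -0.21 with spike-in scaling) rose and Slc7a5, an amino acid carrier, fell (-0.45). Hyou1 fell by 0.45 among 20 genes of the endoplasmic reticulum stress response, of which 19 were negative with a median of -0.23. Atp5c1 (-0.54), Cyp51 (-0.47) and Pgk1 (-0.58) were the single calls among 70 respiratory chain (1.43%), 22 cholesterol (4.55%) and 18 glycolysis genes (5.56%). Among 13 sarcomere genes Ttn rose from 157 and 202 CPM to 256 and 245 (0.48, or -0.02 with spike-in scaling), against the fall of Actn2. Among 17 imprinted genes Airn, the antisense RNA of Igf2r, rose from 12.6 and 6.41 CPM to 21.7 and 22.8 (1.22), and Zim1 was called at 1.34. Whether the counting used strand is not given in the sources used here, so reads of Airn and of its overlapping partner cannot be told apart.

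Against Supt7l-/- clones of the same project, which lack a SAGA subunit, 1299 genes were higher in AID-Yeats2 (8.95%) and 1062 lower (7.32%). Of the 569 genes that rose against WT, 372 (65.4%) were higher than in Supt7l-/- as well, and 1 was lower. Of the 482 that fell, 333 (69.1%) were lower and 1 was higher. The tests against WT and against Supt7l-/- share the AID-Yeats2 libraries, so these shares are no independent check. Among large-subunit genes 29 of 44 were lower than in Supt7l-/-, and among small-subunit genes 15 of 33. Of the p53 death targets 6 were higher and 2 lower, and of the other p53 targets 13 were higher. The S phase genes had 6 members higher and 8 lower than in Supt7l-/-, with a median difference of -0.04. Their median against WT was -0.22 in AID-Yeats2 and -0.20 in Supt7l-/-, values that share the WT libraries. Eif4g3 had 98.8 and 121 CPM in Supt7l-/- and Actn2 had 9.44 and 11.3, above both AID-Yeats2 clones. Fewer genes passed without any 1 of these libraries: 448 higher and 231 lower without AID-Yeats2 clone 1, 651 and 409 without clone 2, 506 and 328 without Supt7l-/- clone 1, and 427 and 319 without its clone 2. With spike-in scaling there were 332 and 391, and with DESeq2 813 and 584.

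AID-Zzz3 clones, in another project with WT libraries of their own, share no library with the AID-Yeats2 comparison. In those, 325 genes were higher (2.11%) and 258 lower (1.67%) than WT. Of the genes that rose in AID-Yeats2 96.3% (548 of 569) had a positive value in AID-Zzz3 and 219 were called higher. Of those that fell 97.5% (470 of 482) were negative there and 183 were called lower. Over all 14513 genes 72.1% had the same sign in both, and 77.1% of the genes at 10 CPM or more. Across the 8346 genes at 10 CPM or more the log2 fold changes correlated at r = 0.776 (Spearman's rho 0.702), a description across genes, which are not independent. Across the 44 large-subunit genes r was 0.880 and across the 33 small-subunit genes 0.910, so that genes that fell most in one line tended to fall most in the other. The large-subunit median was -0.66 in AID-Zzz3, with 27 of 44 called lower, and -0.78 in AID-Yeats2 in the same fit, in which 3.68% of genes were called in AID-Yeats2 either way. Actn2 had 16.4 and 21.9 CPM in that project's WT and 3.61 and 2.92 in AID-Zzz3 (-2.57). Eif4g3 had 142 and 132 CPM against 19.5 and 29.9 (-2.45). Both genes thus stood at like low levels in all 4 degron clones.

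A direct test of the difference between the degron effects called 0 of 15426 genes (0%) in the fit of 14 libraries with edgeR's quasi-likelihood test, with 378 at an unadjusted p under 0.05 (2.45%). DESeq2 called 3, Cdh4, Zzz3 and 1700108F19Rik, and without AID-Yeats2 clone 2 the edgeR test called 2, Adgrl2 and Yeats2. The tagged gene Zzz3 had a difference of 0.62 ± 0.11 on the log2 scale, higher in AID-Yeats2. Cdh4 had 244 and 217 CPM in WT and 279 and 251 in AID-Yeats2, against 247 and 245 in the other WT and 152 and 156 in AID-Zzz3, a difference of 0.87. 1700108F19Rik had 2.77 and 2.83 CPM in the WT of the AID-Zzz3 project and 1.56 and 3.84 in AID-Zzz3 (0.03), where it had risen in both AID-Yeats2 clones. Its difference of 2.68 ± 0.59 did not pass edgeR's adjustment over all genes (adjusted p = 1). A count of 0 does not show that the degrons act alike.

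**Figure D5:**
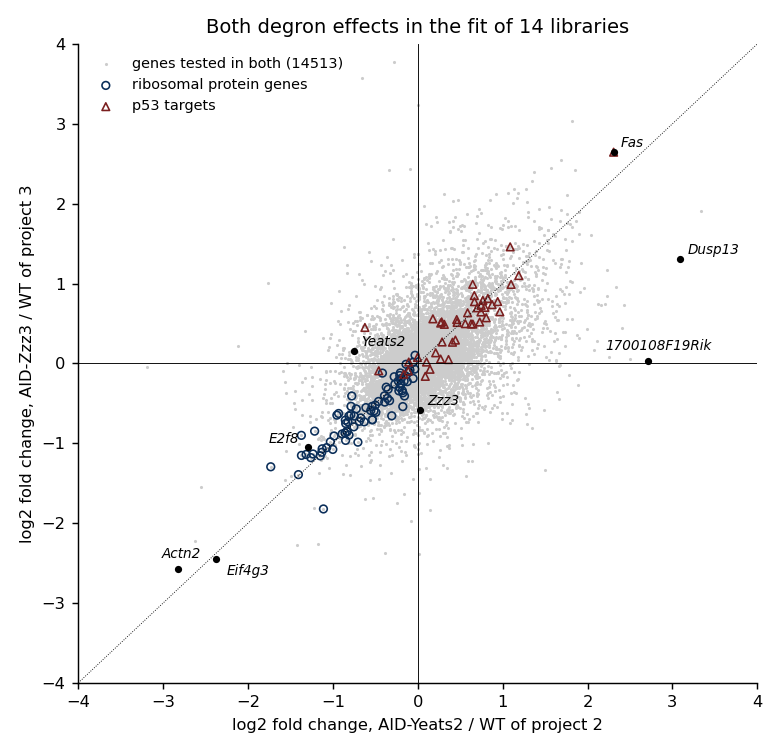
Log2 fold change of AID-Zzz3 over its own WT (vertical axis) against that of AID-Yeats2 over its own WT (horizontal axis) in the fit of 14 libraries, 1 point for each gene tested in both; 2 genes lie outside the axes. Most ribosomal protein genes lie in the lower left and most p53 targets in the upper right.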

How the data were processed

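Tables deposited by the authors hold raw counts for mouse genes (Ensembl) and S. pombe genes. Beside them the authors deposited a normalized signal, here found to equal raw counts over 1 size factor per library, that of the spike-in; log2 fold changes with p-values, from which only counts of calls are used ("the authors' deposited table"); and other annotation, of which mm10 positions are used. The submitters' processing notes list HTSeq 0.6.1p1 and STAR 2.5.3a, and for other steps Bowtie2 2.2.8 and DESeq2 1.16.1. The counted strand and region are not given in the sources used here.

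From the raw counts, the 6 libraries of the project (2 each of WT, AID-Yeats2 and Supt7l-/-) were fitted together with edgeR 4.0.16 (R 4.3.3): filterByExpr with a minimum count of 10, TMM scaling, robust quasi-likelihood test, Benjamini-Hochberg adjustment at 0.05. CPM are reads per 1000000 of the TMM effective library size. Spike-in scaling replaced the library sizes by TMM sizes of 5217 S. pombe genes. Clones are separate by their labels, and the numbers of WT and clones pair nothing. The difference from AID-Zzz3 was fitted over 14 libraries. DESeq2 1.42.0 was an alternative, and figures used matplotlib 3.10.9. Depth was 9488959 to 10542251 mouse counts per library, and neither replicate pair agreed within sampling noise (chi-square per degree of freedom 13.1 for WT and 5.13 for AID-Yeats2). Between groups it was 14.7 and 19.8 for WT replicate 1 against clones 1 and 2. For WT replicate 2 against clones 1 and 2 it was 13.1 and 10.8. By this measure the WT libraries differed from each other about as much as WT replicate 2 did from the clones. The fit was also run on counts simulated with the spread estimated from these libraries. Those counts held no set difference between the 2 WT libraries, so the run cannot speak to the unequal WT pair. Promoters are from RefSeq (GRCm38.p6).

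The comparison and all 36 gene lists were chosen with earlier results of these data known. Genes named are Yeats2 with its neighbours, the 12 largest rises and falls, 4 non-coding genes and the 4 smallest p of every list. Also named are the 8 called genes with the highest level in each direction and the 5 largest differences in each direction from Supt7l-/-. The same rule for AID-Zzz3 named no gene, since none passed the direct test. A gene named beyond those given by rule was chosen after its values were seen, as were the further list members and the promoter genes. The 12 rises and falls and the 4 non-coding genes were taken only among called genes in which clones and WT did not overlap. They also had a mean of at least 1 CPM and kept their sign with spike-in scaling.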

Additional observations from a re-analysis of the deposited data

Results flagged for a closer look

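Genes whose level differed between AID-Yeats2 and Supt7l-/- in the direct test, the 5 largest in each direction, were singled out because the mutants departed from each other. The 5 higher in AID-Yeats2 were all Y-linked. Ddx3y averaged 109 CPM in AID-Yeats2, Uty 516, Eif2s3y 74.2, Uba1y 3.02 and Kdm5d 2.57. In the 2 WT libraries Ddx3y had 95.1 and 135 CPM, Uty 431 and 608, and Eif2s3y 64.9 and 96.0. Uba1y had 2.42 and 2.56 CPM there and Kdm5d 0.773 and 0.855. None of the 5 was called in AID-Yeats2 against WT. In the Supt7l-/- clones Ddx3y, Uba1y and Kdm5d had 0 reads while Uty and Eif2s3y stayed under 0.5 CPM. The 5 lower in AID-Yeats2 included Eif4g3 (a difference of -2.09 on the log2 scale) and Actn2 (-1.85), which had also fallen against WT. Sh3tc2 differed by -2.42, with 5.03 and 1.496 CPM in WT, 2.89 and 1.62 in AID-Yeats2 and 11.9 and 12.2 in Supt7l-/-. Steap2 differed by -1.88 and Anxa3 by -1.81, and for these 3 genes the AID-Yeats2 values overlapped those of WT.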

How the results depend on the processing

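Relative to WT, genes higher and lower numbered 59 and 3411 with spike-in scaling, 329 and 268 with DESeq2, 324 and 220 with 4 libraries, 299 and 268 with 14 libraries, and 761 were lower with no filter. Leaving out 1 library gave 133 to 1069 higher and 87 to 1060 lower. DESeq2 kept 313 of the 569 rises and 253 of the 482 falls. Of the lists, small-subunit genes lower were 29 with spike-in scaling and 11 to 21 with 1 library left out. The p53 death targets higher were 1 with spike-in scaling, 5 each with DESeq2, 4 libraries and 14 libraries, and 4 to 10 with 1 library left out; the p53 arrest targets were 1 and 9 to 17. The S phase genes lower were 30 with spike-in scaling and 3 to 20 with 1 library left out. The large-subunit count of 29 moved less. It was 41 with spike-in scaling, 34 with no filter and 26 with 4 libraries, and it also changed with 1 library left out. The log2 spike-in ratio (-0.50) was -0.374 without clone 1 and -0.625 without clone 2. Genes named only as uncalled list members, or only for a difference from Supt7l-/-, were not followed here for their change against WT. Among the other genes named by rule, 27 values changed sign, 17 of them with spike-in scaling: Utp20 (-0.21), Kansl1 (-0.29), Srgap2 (-0.043), Dnmt3b (-0.12), Cth (-0.21), Kif17 (-0.45), Alpl (-0.47), Exoc4 (-0.12), Nodal (-0.071), Rpl39l (-0.13), Psme4 (-0.12), Ipo11 (-0.24), Ubr3 (-0.11), Ttn (-0.016), Jam2 (-0.26), Ece1 (-0.48) and Arih2 (-0.21). Over all 569 rises, 175 had the opposite sign with spike-in scaling. The others of the 27 were uncalled neighbours: Heatr1 (0.01) with at least 50 counts, and, over the libraries left out in turn, Heatr1 (-0.043 to 0.009), Parl (-0.205 to 0.014), Klhl24 (-0.219 to 0.008), Cyp2ab1 (-0.315 to 0.031), Ece1 (-0.084 to 0.126) and Alpl (-0.072 to 0.119). No paired analysis was possible because WT and AID-Yeats2 share no clone numbering. Against Supt7l-/-, genes higher and lower numbered 332 and 391 with spike-in scaling, 813 and 584 with DESeq2, and 427 to 651 and 231 to 409 with 1 library left out. With clone number as a replicate block they numbered 2380 and 2115; the clones share only a number. The difference from AID-Zzz3 gave 1 gene with spike-in scaling, 3 with DESeq2, 1 with no filter and 0 to 2 with 1 library left out. The cause of these shifts was not tested. The limits are 2 libraries a group, an unequal WT pair and 9488959 to 10542251 counts a library, which leaves genes under 1 CPM with few reads.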

Other observations

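Genes outside the lists moved as firmly as their members. They were chosen after their values were seen. Tfdp1, which encodes DP1, the partner of E2F factors, had 109 and 119 CPM in WT and 56.5 and 60.3 in the clones (log2 fold change -0.97; edgeR adjusted p = 1.73e-05). Rnps1, a splicing activator of the exon junction complex, had 73.0 and 83.6 CPM against 34.6 and 37.6 (-1.12). Both clones lay below WT, as they did for Csnk1d, a casein kinase, with 113 and 114 CPM against 61.5 and 68.3 (-0.81), and for Dgcr8, the partner of Drosha (-0.67). Dock3 had 74.5 and 66.2 CPM against 31.5 and 34.8 (-1.08), and Cep112 had 305 and 294 against 170 and 189 (-0.74). Among rises that were also called with spike-in scaling, Fam198b had 58.9 and 48.6 CPM in WT and 120 and 121 in the clones (1.162). Stk33, a kinase gene, had 15.0 and 16.2 CPM against 44.6 and 38.3 (1.41), and Galnt6, a glycosyltransferase gene, had 19.9 and 15.9 against 43.9 and 41.3 (1.25). Fam214a had 29.4 and 25.1 CPM against 60.4 and 58.0 (1.12), and Ddit4l had 6.19 and 4.49 against 16.4 and 16.1 (1.60). None of these genes had overlapping groups, which holds for every called gene. The genes on either side of 1700108F19Rik, Serp2 (-0.39) and Lacc1 (-0.29), were not called.

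The share of genes that rose was higher among long genes. It was 1.33% of the 451 genes under 2 kb from end to end and 10.7% of the 225 genes over 500 kb, where the median log2 fold change was 0.13. The share that fell was 1.33% under 2 kb, 3.74% at 2 to 5 kb, 3.46% at 100 to 200 kb, 6.08% at 200 to 500 kb and 3.56% over 500 kb. Without ribosomal protein genes it was 1.13% under 2 kb, 1.18% at 2 to 5 kb and 2.01% at 5 to 10 kb, so it also rose with length up to 500 kb. In the 2 to 5 kb bin, 53 genes were of ribosomal proteins, with a median of -0.67, while the other 1098 had a median of 0.01 and 13 falls (1.18%). Among the 2903 genes above 80.2 CPM in WT, 8.58% fell and 4.51% rose. Power to call a gene rises with its reads, and its part in these shares was not tested.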
